A study of Rattus norvegicus with 484 samples.

Results

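The genes described here encode aldehyde, alcohol and retinol dehydrogenases and related reductases, measured in rat liver and skeletal muscle. Members were genes whose symbol on the array begins with Aldh, Adh, Rdh, Dhrs, Akr or Hsd followed by a digit, apart from any that the rule leaves out. The probes of a gene were averaged. The rule found 60 genes measured by 110 probes, among 10210 named genes measured by 15260 probes. They comprised 3 retinal dehydrogenases (Aldh1a), 6 retinol dehydrogenases (Rdh), 3 alcohol dehydrogenases (Adh), 7 dehydrogenases of fatty, aromatic and small aldehydes, 6 of amino acid and folate aldehydes, 12 aldo-keto reductases (Akr), 15 hydroxysteroid dehydrogenases (Hsd) and 8 other short-chain dehydrogenases (Dhrs). The rule uses symbols and no measured value, but it was set with earlier results of these data known.

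Retinol becomes retinoic acid in a pair of oxidations: retinol and alcohol dehydrogenases make retinal, and the Aldh1a enzymes turn retinal into retinoic acid, while several short-chain dehydrogenases and aldo-keto reductases run the retinal step backwards. Other aldehyde dehydrogenases clear the aldehydes that come from lipid peroxidation, ethanol, fatty alcohols and amino acids. Many hydroxysteroid dehydrogenases and aldo-keto reductases switch steroid hormones on or off, and liver is a main site of most of these reactions.

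Rats were given the PPARA agonists fenofibrate (400 mkd, the labels' dose unit), bezafibrate (250 mkd) or Wy-14643 (100 mkd), the PPARG agonist rosiglitazone (100 mkd), retinoic acid (25 mkd), or vehicle, and liver, soleus and quad were taken on days 2 to 6. PPARA is the nuclear receptor that switches on fatty acid oxidation in liver, PPARG the one that drives fat cell genes, and retinoic acid is the ligand of the retinoic acid receptors. In liver there were 14 arrays for fenofibrate, 15 each for bezafibrate, Wy-14643, rosiglitazone and retinoic acid, and 73 for vehicle. In soleus, a slow leg muscle, there were 19 for fenofibrate, 20 for bezafibrate, 18 for Wy-14643, 20 each for rosiglitazone and retinoic acid, and 35 for vehicle. In the muscle labelled Quad there were 18 for fenofibrate, 20 for bezafibrate, 16 each for Wy-14643 and rosiglitazone, 18 for retinoic acid and 63 for vehicle. The muscle labelled EDL came without vehicle rats measured singly and had lower doses: fenofibrate 50 mkd (9 arrays), bezafibrate 25 mkd (9), Wy-14643 10 mkd (12), retinoic acid 2.5 mkd (11) and rosiglitazone 10 mkd (9), with 4 more at 100 mkd. EDL was taken on days 3 to 6, with only Wy-14643 and retinoic acid on day 3 and rosiglitazone at 100 mkd on day 4 alone. Strain, sex and age are not given in the labels used here. On each array the RNA of a single rat was set against pooled vehicle RNA, so every value is a log2 ratio to the pool, and levels cannot be compared between genes. Neither the log base of the deposited ratios nor their direction is stated, and both were inferred from the values, with the rat over the pool.

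Treatments showed in other genes. In liver the mean of the 3 PPARA agonists differed from vehicle by 2.62 ± 0.12 (log2, SE) for Ehhadh, a peroxisomal fatty acid oxidation enzyme, and retinoic acid by 4.93 ± 0.12 for Cyp26b1, which breaks retinoic acid down. Over all tissues 10 arrays stood apart by a wide spread of values or by markers of another tissue. The one that weighed most on the members was a liver library of a rosiglitazone rat on day 4. Its mean log2 ratio over 10 hepatocyte markers was -2.60, against -0.32 through -0.01 to 0.37 (lowest, median, highest) in vehicle livers, its 8 muscle markers averaged 1.89, and 42 of the 60 members lay below all 14 other rosiglitazone livers and 7 above them. The spread of its values was 4.55 times the liver median, and the same count was not made over all features. Results for rosiglitazone are given with and without this library.

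Markers of cell types moved with the treatments in liver. Of 10 hepatocyte markers 5 could be tested: 2 fell with PPARA agonists and 3 with retinoic acid, which lowered the albumin gene Alb by 1.53. Of the macrophage and leukocyte markers 7 of 8 fell with PPARA agonists (list median -0.33) and 1 of 7 with retinoic acid (list median 0.03). The array means of that list ran from -0.66 through -0.37 to 0.37 in fenofibrate livers, from -0.42 through -0.17 to 0.61 in bezafibrate livers, from -0.71 through -0.34 to -0.07 in Wy-14643 livers and from -0.48 through -0.02 to 0.51 in vehicle livers. The part of these shifts in the results below was not tested, and fewer cells of a type cannot be told apart from less RNA per cell.

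In liver the PPARA agonists changed 23 of the 58 members tested, 9 of them higher and 14 lower than in vehicle rats (limma, adjusted p under 0.05 over all features). That is 39.7% of the members, against 45.5% of all 18384 features (21.6% higher and 23.9% lower), so the members' share was below the background. The median difference was 0.01 over the members and 0.00 over all features. Retinoic acid changed 27 members, 5 higher and 22 lower, or 46.6% against 29.2% of all features. Of all features 14.2% were higher and 15.0% lower, so the falls stood above their background share and the rises below theirs. The median difference was -0.11 over the members and 0.00 over all features. Both comparisons share the vehicle arrays, so the treatments were also compared with each other. The PPARA agonist mean differed from retinoic acid for 29 of the 58 members, against 36.9% of all features. Of the 29, 22 were higher with PPARA agonists, but the shares of all features in each direction are not given here.

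**Figure D1:**
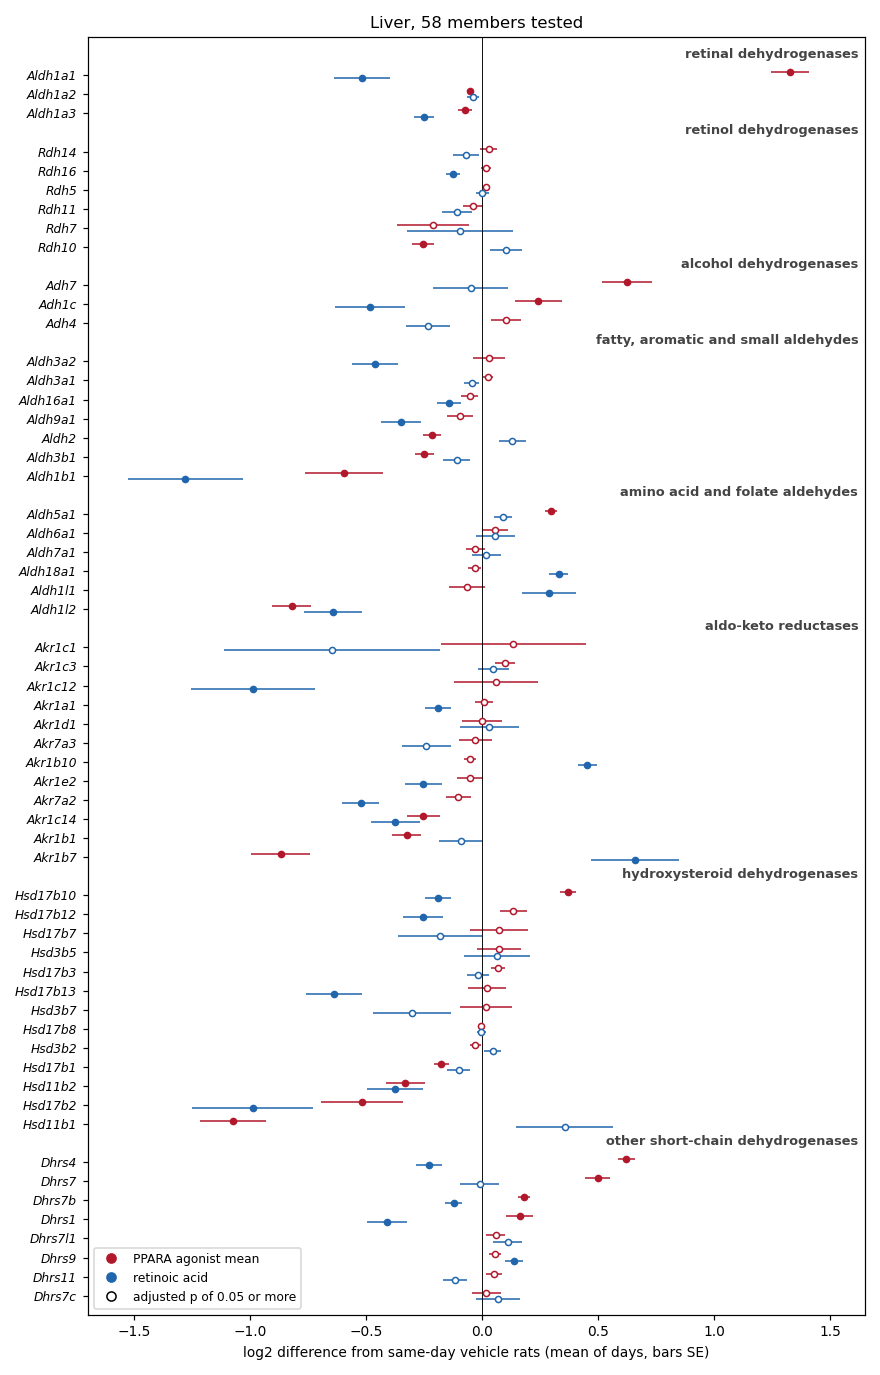
Log2 difference from same-day vehicle rats in liver for the 58 members tested, grouped by role, for the PPARA agonist mean (red) and retinoic acid (blue), with bars for the SE and open points where the test was not passed. Aldh1a1 lies at 1.33 with PPARA agonists and -0.52 with retinoic acid, and Akr1b7 at -0.87 and 0.66.

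Aldh1a1, the main cytosolic enzyme that oxidises retinal to retinoic acid, had the highest difference of all members with PPARA agonists. Its log2 ratios ran from 0.98 through 1.60 to 2.40 in fenofibrate livers, from -0.28 through 0.61 to 1.22 in bezafibrate livers, from 0.84 through 1.60 to 2.14 in Wy-14643 livers, from -1.56 through -0.70 to 0.46 in retinoic acid livers and from -1.28 through -0.14 to 1.54 in vehicle livers (lowest, median, highest). Fenofibrate and Wy-14643 livers were high and retinoic acid livers low, and every range overlapped that of vehicle. Of the 44 PPARA agonist livers 42 lay above the mean of their day's vehicle rats and 19 above the highest vehicle rat. The gene rose by 1.33 ± 0.08 with PPARA agonists (2.51-fold, adjusted p = 2.5e-29, limma) and fell by 0.52 ± 0.12 with retinoic acid (adjusted p = 0.0004, limma), where 11 of 15 livers lay below their day's vehicle mean. The 2 treatments differed by 1.85 ± 0.13 (adjusted p = 2.7e-25, limma). All 6 probes of the gene gave these directions, at 0.94 to 1.50 with PPARA agonists and -0.63 to -0.22 with retinoic acid. Transcripts of a close copy that bind the same probes would be measured with it, and probe sequences were not used here.

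The other retinal dehydrogenases changed by less. Aldh1a3, best known from epithelia, fell by 0.25 ± 0.04 with retinoic acid, with 15 of 15 livers below their day's vehicle mean, and fell by 0.07 ± 0.03 with PPARA agonists. Aldh1a2, the enzyme that makes retinoic acid in mesenchyme and in the embryo, fell by 0.05 ± 0.02 with PPARA agonists and stood at -0.04 ± 0.03 with retinoic acid, which did not pass.

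**Figure D2:**
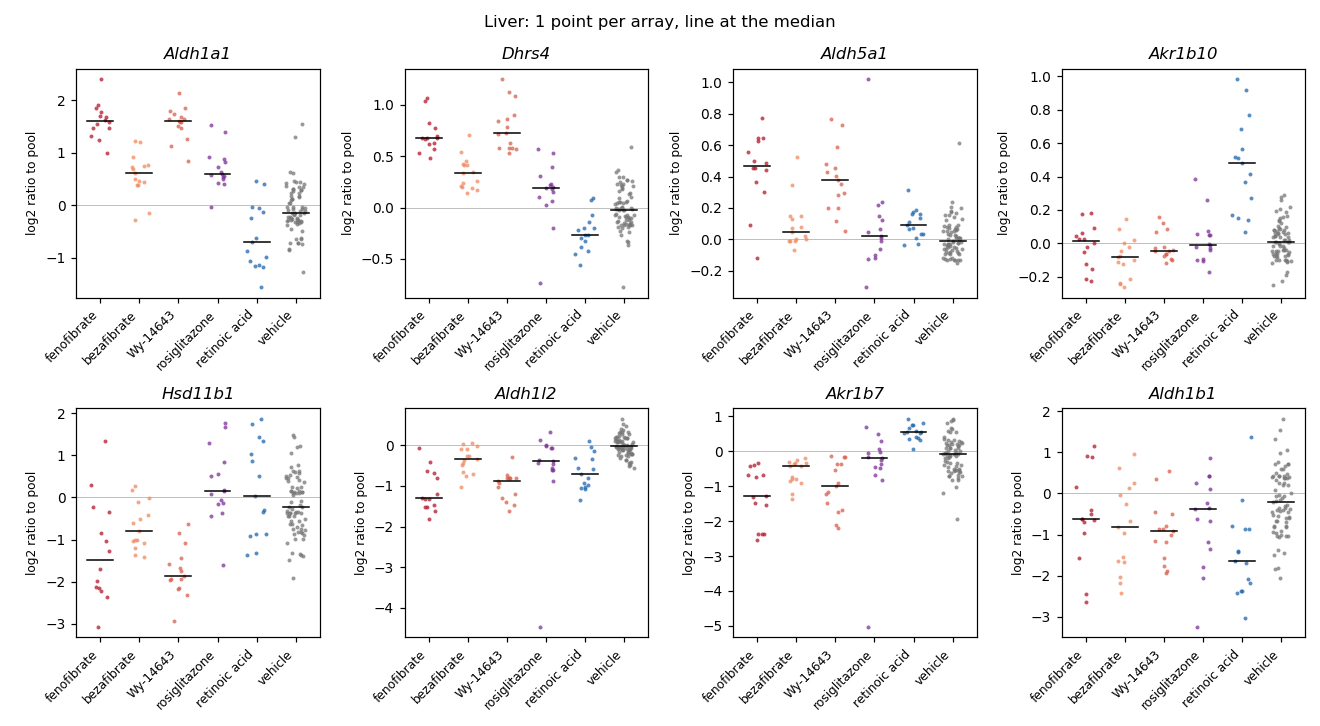
Log2 ratio to the vehicle pool on every liver array for 8 members, 1 point per rat, with a line at the group's median and the treated groups left of vehicle. The medians of Aldh1a1 are 1.60 with fenofibrate and 1.60 with Wy-14643, that of Akr1b10 is 0.48 with retinoic acid, and the lowest rosiglitazone liver lies at -5.03 for Akr1b7.

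The start of Aldh1a1 is shown because that gene had the highest rise. The 6 bases AGGTCA, the core motif of PPARs, retinoic acid receptors and other nuclear receptors, were searched on both strands from 250 bases before to 50 after each gene's start (RefSeq, GRCr8). Of the 60 members 44 had a window, and 10 of these held the motif, against 16.2% of all 33469 windows. The direct repeats AGGTCANAGGTCA and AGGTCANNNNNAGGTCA, which overlap the single motif, were in 0.0538% and 0.00896% of all windows and in 0 of the members' windows. A match is no evidence of binding, and no match says only that these letters are not in this window. The Aldh1a1 window, in lower case because it holds no match, was as follows.
Aldh1a1, GRCr8 chr1:227537370-227537669, strand +: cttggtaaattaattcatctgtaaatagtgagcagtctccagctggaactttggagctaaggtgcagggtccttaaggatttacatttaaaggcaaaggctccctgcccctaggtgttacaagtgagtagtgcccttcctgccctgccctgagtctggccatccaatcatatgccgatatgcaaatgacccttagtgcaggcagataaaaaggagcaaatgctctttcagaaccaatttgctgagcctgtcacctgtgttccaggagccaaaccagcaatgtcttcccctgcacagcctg

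Of the 6 retinol dehydrogenases 1 fell with PPARA agonists and 1 with retinoic acid, and none rose. Rdh10, the main enzyme that makes retinal from retinol, had log2 ratios from -0.87 through -0.24 to 0.22 in PPARA agonist livers, from -0.90 through 0.14 to 0.52 in retinoic acid livers and from -0.27 through 0.01 to 0.40 in vehicle livers. The ranges overlapped, with 36 of 44 PPARA agonist livers below their day's vehicle mean and 20 below the lowest vehicle rat. It fell by 0.26 ± 0.05 with PPARA agonists (adjusted p = 1.7e-06, limma) and stood at 0.10 ± 0.07 with retinoic acid, a difference between the treatments of -0.36 ± 0.07. Rdh16, which oxidises retinol and androgens, fell by 0.13 ± 0.03 with retinoic acid, but its probe with the fewest missing values alone gave -0.04 and did not pass (adjusted p = 0.47, limma). With PPARA agonists it stood at 0.02 ± 0.02. Rdh7 varied among vehicle livers (SD 0.79 within days) and stood at -0.21 ± 0.16 with PPARA agonists and -0.10 ± 0.23 with retinoic acid. Rdh5, Rdh11 and Rdh14 passed in neither comparison.

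Among the alcohol dehydrogenases, Adh7, the class most active on retinol, rose by 0.63 ± 0.11 with PPARA agonists (adjusted p = 5.1e-07, limma). Its log2 ratios ran from 0.35 through 0.83 to 1.47 in fenofibrate livers, from -1.27 through -0.12 to 1.20 in bezafibrate livers, from 0.02 through 0.83 to 2.02 in Wy-14643 livers, from -1.67 through -0.03 to 0.78 in retinoic acid livers and from -1.11 through -0.07 to 1.16 in vehicle livers. Fenofibrate and Wy-14643 livers were high, the bezafibrate median lay below that of vehicle, and all ranges overlapped. Adh7 stood at -0.05 ± 0.16 with retinoic acid. Adh1c, the classical liver alcohol dehydrogenase, rose by 0.24 ± 0.10 with PPARA agonists (adjusted p = 0.044, limma) and fell by 0.48 ± 0.15 with retinoic acid. The compounds did not go the same way for Adh1c. Its median was 0.47 in fenofibrate, 0.40 in Wy-14643, -0.36 in bezafibrate and -0.02 in vehicle livers, and the ranges overlapped. Of its 3 probes 1 had a value on 119 and 1 on 133 of the 147 liver arrays, so its average does not rest on the same probes on every array. These probes had values on 30 and 36 of 44 PPARA agonist, 14 and 15 of 15 retinoic acid, and 63 and 69 of 73 vehicle livers. The part of this unevenness in the Adh1c differences was not tested. Adh4 passed in neither comparison with vehicle, at 0.10 ± 0.06 and -0.23 ± 0.10, and its 6 probes disagreed: with PPARA agonists 3 probes of one transcript lay at 0.28 to 0.29 and 3 of another at -0.11 to -0.04. The median of Adh4 was 0.22 in fenofibrate, 0.21 in Wy-14643, -0.25 in bezafibrate and -0.03 in vehicle livers.

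Of the 7 dehydrogenases of fatty, aromatic and small aldehydes 3 fell with PPARA agonists and 4 with retinoic acid, and none rose. Aldh1b1, a mitochondrial acetaldehyde dehydrogenase, had log2 ratios from -2.65 through -0.81 to 1.15 in PPARA agonist livers, from -3.04 through -1.65 to 1.38 in retinoic acid livers and from -2.05 through -0.22 to 1.81 in vehicle livers. The ranges were wide and overlapped, with 33 of 44 PPARA agonist and 14 of 15 retinoic acid livers below their day's vehicle mean. It fell by 1.28 ± 0.25 with retinoic acid (adjusted p = 1.4e-05, limma) and fell by 0.59 ± 0.17 with PPARA agonists (adjusted p = 0.0019, limma). Aldh3a2, the fatty aldehyde dehydrogenase and a known PPARA target, stood at 0.03 ± 0.07 with PPARA agonists (95% interval -0.10 to 0.16) and did not pass, while it fell by 0.46 ± 0.10 with retinoic acid (14 of 15 livers below). Of its probes 1 had a value on 11 and 1 on 103 of the 147 liver arrays.

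Aldh2, the mitochondrial enzyme that clears acetaldehyde, fell by 0.22 ± 0.04 with PPARA agonists (40 of 44 livers below) and stood at 0.13 ± 0.06 with retinoic acid, a difference between the treatments of -0.35 ± 0.06. Aldh3b1, which oxidises aldehydes of lipid peroxidation, fell by 0.25 ± 0.04 with PPARA agonists. With retinoic acid Aldh9a1, of carnitine and GABA synthesis, fell by 0.35 ± 0.09 and Aldh16a1 fell by 0.15 ± 0.05. Aldh3a1, of aromatic aldehydes, stood at 0.02 ± 0.02 with PPARA agonists and -0.05 ± 0.03 with retinoic acid.

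In the amino acid and folate group, Aldh1l2, the mitochondrial 10-formyltetrahydrofolate dehydrogenase, fell with both treatments. Its log2 ratios ran from -1.82 through -0.80 to 0.07 in PPARA agonist livers, from -1.35 through -0.70 to 0.11 in retinoic acid livers and from -0.55 through -0.02 to 0.65 in vehicle livers. Below the lowest vehicle liver lay 30 of 44 PPARA agonist and 10 of 15 retinoic acid livers. It fell by 0.82 ± 0.08 with PPARA agonists (adjusted p = 2.3e-15, limma) and fell by 0.65 ± 0.13 with retinoic acid (adjusted p = 1.4e-05, limma), and the treatments differed by -0.18 ± 0.13, which did not pass. Its cytosolic counterpart Aldh1l1 rose by 0.29 ± 0.12 with retinoic acid (adjusted p = 0.047, limma) and stood at -0.07 ± 0.08 with PPARA agonists.

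Aldh18a1, which starts proline synthesis from glutamate, had log2 ratios from -0.02 through 0.29 to 0.83 in retinoic acid livers and from -0.28 through -0.01 to 0.16 in vehicle livers. Of the 15 retinoic acid livers 15 lay above their day's vehicle mean and 11 above the highest vehicle liver. It rose by 0.33 ± 0.04 with retinoic acid (adjusted p = 3.8e-11, limma) and stood at -0.03 ± 0.03 with PPARA agonists. Aldh5a1, which oxidises succinic semialdehyde from GABA, rose by 0.30 ± 0.03 with PPARA agonists (39 of 44 livers above, adjusted p = 1.6e-18, limma) and stood at 0.09 ± 0.04 with retinoic acid. Aldh6a1, of valine breakdown, and Aldh7a1, of lysine breakdown, passed in neither comparison.

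Of the 12 aldo-keto reductases 3 fell and none rose with PPARA agonists, and 2 rose and 5 fell with retinoic acid. Akr1b10, known in human as a reductase of retinal and lipid aldehydes, had log2 ratios from -0.26 through -0.05 to 0.18 in PPARA agonist livers, from 0.07 through 0.48 to 0.99 in retinoic acid livers and from -0.25 through 0.01 to 0.29 in vehicle livers. Of the 15 retinoic acid livers 15 lay above their day's vehicle mean and 10 above the highest vehicle liver. It rose by 0.45 ± 0.04 with retinoic acid (1.37-fold, adjusted p = 1.2e-18, limma) and stood at -0.05 ± 0.03 with PPARA agonists, a difference between the treatments of -0.51 ± 0.04 (adjusted p = 1.7e-20, limma).

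Akr1b7, an aldose reductase relative known in mouse from the adrenal and vas deferens, ran from -2.55 through -0.80 to -0.14 in PPARA agonist livers, from 0.06 through 0.55 to 0.92 in retinoic acid livers and from -1.93 through -0.08 to 0.92 in vehicle livers. PPARA agonist livers were low (43 of 44 below their day's vehicle mean) and retinoic acid livers high (15 of 15 above), within the range of vehicle livers for retinoic acid. It fell by 0.87 ± 0.13 with PPARA agonists (adjusted p = 5.4e-09, limma) and rose by 0.66 ± 0.19 with retinoic acid (adjusted p = 0.0043, limma), and the treatments differed by -1.53 ± 0.20. Of the 5 members that rose with retinoic acid 4 had a window. Akr1b10, Akr1b7 and Dhrs9 held AGGTCA while Aldh1l1 did not. Of the 22 that fell 18 had a window and 3 held it. Of the 33 not called, which include those not tested, 22 had a window and 4 held it. Whether the motif goes with the direction was not tested. The 3 starts of genes that rose and held the motif are shown, chosen after the match was seen. Capitals mark the motif on either strand.
Akr1b10, GRCr8 chr4:64005382-64005681, strand +: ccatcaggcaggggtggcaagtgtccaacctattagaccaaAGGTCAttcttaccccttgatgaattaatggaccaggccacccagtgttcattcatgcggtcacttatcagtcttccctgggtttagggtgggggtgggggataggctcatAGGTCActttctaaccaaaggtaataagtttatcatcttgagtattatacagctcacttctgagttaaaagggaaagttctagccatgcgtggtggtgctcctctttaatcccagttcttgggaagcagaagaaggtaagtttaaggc
Akr1b7, GRCr8 chr4:64043720-64044019, strand +: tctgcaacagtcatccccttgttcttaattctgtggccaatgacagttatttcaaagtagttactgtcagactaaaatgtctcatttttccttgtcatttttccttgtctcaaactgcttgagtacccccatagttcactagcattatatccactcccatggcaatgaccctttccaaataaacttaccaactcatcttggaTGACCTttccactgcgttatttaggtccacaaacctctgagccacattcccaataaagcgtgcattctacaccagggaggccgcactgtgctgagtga
Dhrs9, GRCr8 chr3:74555435-74555734, strand +: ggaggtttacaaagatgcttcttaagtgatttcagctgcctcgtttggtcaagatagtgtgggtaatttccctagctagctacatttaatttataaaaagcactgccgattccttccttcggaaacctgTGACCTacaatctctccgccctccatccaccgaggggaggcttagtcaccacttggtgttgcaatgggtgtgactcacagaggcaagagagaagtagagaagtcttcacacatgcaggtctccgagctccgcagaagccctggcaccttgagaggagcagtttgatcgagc

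Akr1b1, aldose reductase, fell by 0.33 ± 0.06 with PPARA agonists (42 of 44 livers below) and stood at -0.09 ± 0.09 with retinoic acid. Akr7a2, a succinic semialdehyde reductase, fell by 0.52 ± 0.08 with retinoic acid (adjusted p = 4.3e-08, limma), as did Akr1a1, the general aldehyde reductase, by 0.19 ± 0.06, and Akr1e2 by 0.26 ± 0.08. Akr1c14, the rat liver 3-alpha-hydroxysteroid dehydrogenase, fell by 0.25 ± 0.07 with PPARA agonists and fell by 0.38 ± 0.11 with retinoic acid. Akr1c12 fell by 0.99 ± 0.27 with retinoic acid, but it varied among vehicle livers (SD 0.90) and did not pass without day 5 (-0.75, adjusted p = 0.07, limma). Akr1c1 varied most of all members among vehicle livers (SD 1.60) and stood at 0.13 ± 0.31 with PPARA agonists and -0.65 ± 0.46 with retinoic acid. The 4 Akr1c genes lie together on chromosome 17 and are close copies, so probes may share signal between them. Akr1d1, the 5-beta-reductase of bile acid synthesis, stood at 0.00 ± 0.09 and 0.03 ± 0.13, and Akr7a3, which reduces aflatoxin aldehyde, at -0.03 ± 0.07 and -0.24 ± 0.11. Akr1c3 passed in neither comparison.

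Of the 13 hydroxysteroid dehydrogenases tested 1 rose and 4 fell with PPARA agonists, and 5 fell and none rose with retinoic acid. Hsd11b1, which regenerates active glucocorticoid in liver, had log2 ratios from -3.08 through -1.49 to 1.33 in fenofibrate livers, from -1.42 through -0.81 to 0.28 in bezafibrate livers, from -2.94 through -1.86 to -0.62 in Wy-14643 livers, from -1.38 through 0.03 to 1.86 in retinoic acid livers and from -1.90 through -0.23 to 1.48 in vehicle livers. All ranges overlapped, and 39 of 44 PPARA agonist livers lay below their day's vehicle mean. It fell by 1.08 ± 0.14 with PPARA agonists (2.11-fold lower, adjusted p = 9.1e-11, limma), the lowest difference of all members, and stood at 0.36 ± 0.21 with retinoic acid, which did not pass. The treatments differed by -1.43 ± 0.22. Hsd11b2, which inactivates glucocorticoid, fell by 0.33 ± 0.08 with PPARA agonists and fell by 0.38 ± 0.12 with retinoic acid.

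Hsd17b2, which inactivates oestradiol and testosterone, fell by 0.52 ± 0.18 with PPARA agonists, although fenofibrate alone stood at 0.11 ± 0.28, bezafibrate at -0.88 ± 0.26 and Wy-14643 at -0.78 ± 0.26. With retinoic acid it fell by 0.99 ± 0.26, and with arrays scaled to equal spread it stood at -0.65 and did not pass (adjusted p = 0.051, limma). Hsd17b10, a mitochondrial enzyme of isoleucine breakdown, ran from -0.25 through 0.42 to 0.89 in PPARA agonist livers, from -0.48 through -0.23 to 0.60 in retinoic acid livers and from -0.40 through 0.00 to 0.80 in vehicle livers. It rose by 0.37 ± 0.04 with PPARA agonists (40 of 44 livers above, adjusted p = 2.1e-16, limma) and fell by 0.19 ± 0.05 with retinoic acid. Hsd17b13, a lipid droplet protein of hepatocytes, ran from -1.34 through -0.67 to -0.14 in retinoic acid livers and from -0.58 through -0.01 to 0.49 in vehicle livers, with 15 of 15 retinoic acid livers below their day's vehicle mean and 8 below the lowest vehicle liver. It fell by 0.64 ± 0.12 with retinoic acid (adjusted p = 8.4e-06, limma) and stood at 0.02 ± 0.08 with PPARA agonists. Hsd17b1, which makes oestradiol, fell by 0.18 ± 0.03 with PPARA agonists, and Hsd17b12, of fatty acid elongation, fell by 0.26 ± 0.09 with retinoic acid. Hsd3b5, a 3-ketosteroid reductase of rodent liver, stood at 0.07 ± 0.10 and 0.07 ± 0.14. Hsd3b2, Hsd3b7, Hsd17b3, Hsd17b7 and Hsd17b8 passed in neither comparison, and Hsd17b11 and Hsd17b6 had a value on only 18 and 83 of the 147 liver arrays and were not tested in liver.

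Of the 8 other short-chain dehydrogenases 4 rose and none fell with PPARA agonists, and 1 rose and 3 fell with retinoic acid. Dhrs4, a peroxisomal retinal and carbonyl reductase, had log2 ratios from 0.48 through 0.68 to 1.07 in fenofibrate livers, from 0.14 through 0.33 to 0.71 in bezafibrate livers, from 0.53 through 0.72 to 1.25 in Wy-14643 livers, from -0.56 through -0.27 to 0.09 in retinoic acid livers and from -0.78 through -0.02 to 0.59 in vehicle livers. The ranges overlapped, but 44 of 44 PPARA agonist livers lay above their day's vehicle mean and 22 above the highest vehicle liver. It rose by 0.62 ± 0.04 with PPARA agonists (1.54-fold, adjusted p = 2e-30, limma) and fell by 0.23 ± 0.06 with retinoic acid (adjusted p = 0.00051, limma), and the treatments differed by 0.85 ± 0.06. Dhrs7 rose by 0.50 ± 0.06 with PPARA agonists (38 of 44 livers above) and stood at -0.01 ± 0.08 with retinoic acid. Dhrs7b, known in mouse from ether lipid synthesis in peroxisomes, rose by 0.18 ± 0.03 with PPARA agonists and fell by 0.12 ± 0.04 with retinoic acid. Dhrs1 rose by 0.16 ± 0.06 with PPARA agonists and fell by 0.41 ± 0.09 with retinoic acid (15 of 15 livers below). Dhrs9, a retinol and steroid dehydrogenase, rose by 0.14 ± 0.04 with retinoic acid and stood at 0.06 ± 0.03 with PPARA agonists. Its probe with the fewest missing values alone gave 0.07 with retinoic acid and did not pass (adjusted p = 0.12, limma). Dhrs7c, Dhrs7l1 and Dhrs11 passed in neither comparison.

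Taken singly in liver, fenofibrate changed 23 members (13 higher, 37.0% of all features changed), bezafibrate 9 (2 higher, 21.3% of features), Wy-14643 24 (12 higher, 40.2%) and rosiglitazone 16 (4 higher, 22.7%). Doses differ between the compounds, so their values are set side by side without a test between them. Aldh1a1 stood at 1.69 ± 0.13 with fenofibrate, 0.65 ± 0.12 with bezafibrate, 1.64 ± 0.12 with Wy-14643 and 0.77 ± 0.12 with rosiglitazone, and passed with each. Dhrs4 stood at 0.72 ± 0.06 with fenofibrate, 0.35 ± 0.06 with bezafibrate, 0.80 ± 0.06 with Wy-14643 and 0.16 ± 0.06 with rosiglitazone. Aldh1l2 stood at -1.13 ± 0.13, -0.35 ± 0.13, -0.98 ± 0.13 and -0.56 ± 0.13 in the same order. These 3 members passed with every compound, but some of these calls were lost under other settings. Dhrs4 with rosiglitazone did not pass without day 3, 5 or 6 (0.09 to 0.15, adjusted p = 0.071 to 0.3, limma), with array weights or with the probe with the fewest missing values. Aldh1l2 did not pass with bezafibrate without day 3 or 6 (-0.33 to -0.30, adjusted p = 0.12 to 0.19, limma), nor with rosiglitazone under array weights (-0.36, adjusted p = 0.09, limma). Hsd11b1 passed with fenofibrate (-1.13 ± 0.22) and Wy-14643 (-1.59 ± 0.21), while bezafibrate stood at -0.51 ± 0.21 and rosiglitazone at 0.45 ± 0.21. Adh7 passed with fenofibrate (0.94 ± 0.17) and Wy-14643 (0.88 ± 0.16), while bezafibrate stood at 0.06 ± 0.16 and rosiglitazone at -0.19 ± 0.16. Akr1b7 stood at -1.20 ± 0.20 with fenofibrate, -0.50 ± 0.19 with bezafibrate and -0.90 ± 0.19 with Wy-14643, which passed, and at -0.35 ± 0.19 with rosiglitazone, which did not. The bezafibrate call for Akr1b7 was lost on leaving out any of the 5 days (-0.56 to -0.40, adjusted p = 0.063 to 0.11, limma) and with arrays scaled to equal spread.

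Without the rosiglitazone library that stood apart, rosiglitazone changed 10 members and bezafibrate 15; all groups share 1 estimate of the spread in the fit. Of the 16 rosiglitazone calls 9 remained, and Adh1c, Akr1b1, Akr1c14, Aldh7a1, Hsd17b13, Rdh10 and Rdh11 no longer passed. Rosiglitazone then stood at 0.81 ± 0.13 for Aldh1a1 and 0.22 ± 0.06 for Dhrs4. Aldh1l2 stood at -0.27 ± 0.09 without the library and -0.56 ± 0.13 with it, and Hsd17b2 at -0.79 ± 0.26 without it and -0.99 ± 0.26 with it. The PPARA agonist mean changed 25 members and retinoic acid 32 without the library, and these included all 23 and all 27 called with it. The shares of all features without the library are not given here, so these counts are not read as results about the members. Over all settings and left-out days tried, 17 of the 23 PPARA agonist calls in liver passed throughout, and Adh1c, Aldh1a2, Aldh1a3, Aldh1b1, Dhrs1 and Hsd17b2 missed the threshold at least once. With retinoic acid 13 of 27 passed throughout, and the 14 that missed it at least once were Adh1c, Akr1a1, Akr1c12, Akr1c14, Akr1e2, Aldh16a1, Aldh1l1, Dhrs7b, Dhrs9, Hsd11b2, Hsd17b10, Hsd17b12, Hsd17b2 and Rdh16.

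Over the 5 days 20 of the 23 members called with PPARA agonists in liver kept their sign, as did 20 of the 27 called with retinoic acid. Aldh1a1 stood at 1.31 ± 0.19 on day 2 and 1.56 ± 0.18 on day 6 with PPARA agonists. A slope over days passed for 1 member with PPARA agonists, against 0.838% of all features: Aldh5a1 at 0.08 ± 0.02 per day, with 0.12 ± 0.06 on day 2 and 0.45 ± 0.06 on day 6. With retinoic acid 3 slopes passed, against 9.38% of all features: Hsd17b1 at 0.11 ± 0.03 per day, Rdh14 at 0.13 ± 0.04 and Aldh7a1 at -0.14 ± 0.04. Aldh7a1 stood at 0.41 ± 0.14 on day 2 and -0.26 ± 0.14 on day 6. None of these 4 slopes passed with arrays scaled to equal spread, where they were 0.05, 0.08, 0.08 and -0.10 in the order named. With the probe with the fewest missing values the Aldh7a1 slope was -0.09 and did not pass (adjusted p = 0.43, limma).

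**Figure D3:**
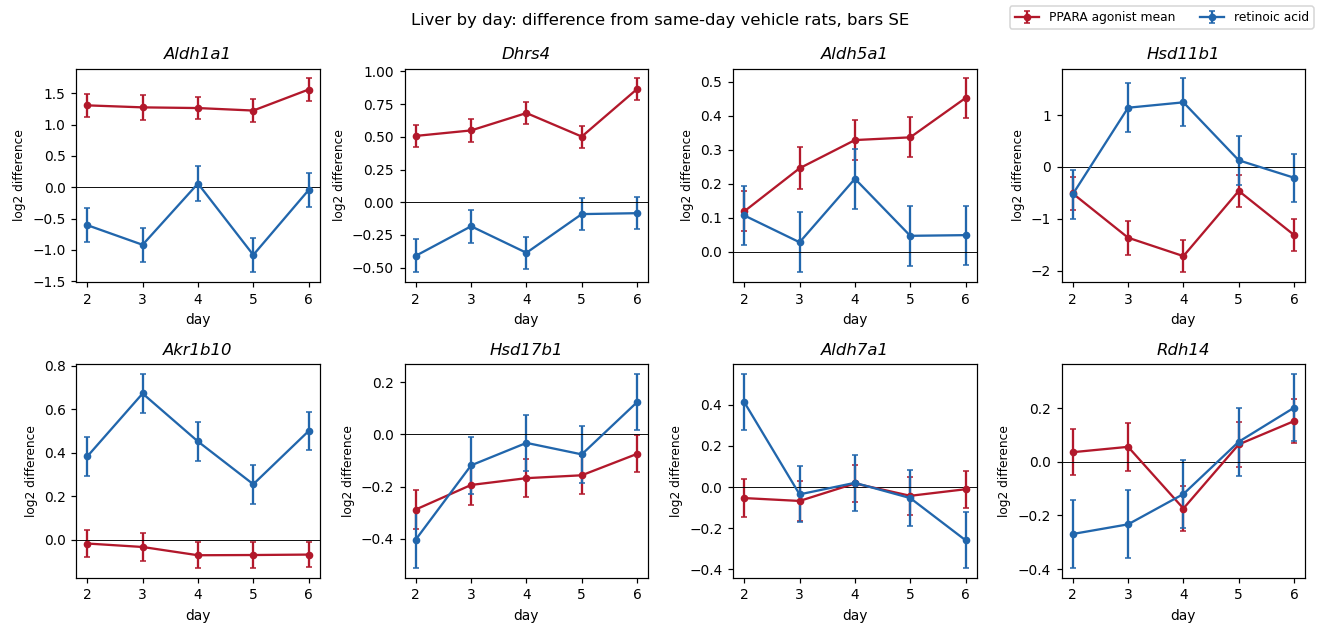
Log2 difference from same-day vehicle rats in liver on days 2 to 6 for 8 members, for the PPARA agonist mean (red) and retinoic acid (blue), with bars for the SE. Aldh5a1 lies at 0.12 on day 2 and 0.45 on day 6 with PPARA agonists, and Hsd11b1 at -0.51 on day 2 and -1.72 on day 4.

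In soleus the PPARA agonists changed 0 of 60 members by limma (7 had an unadjusted p under 0.05), against 1.96% of all features. Member differences ran from -0.15 to 0.36, and 23 enzymes followed by name in every tissue, among them Aldh1a1, Rdh10, Dhrs9 and Hsd17b10, stood between -0.15 (Adh7) and 0.17 (Akr1d1). Of the single compounds fenofibrate changed 1 (3.33% of all features), Dhrs4, which rose by 0.28 ± 0.08 (adjusted p = 0.034, limma), a call lost on leaving out day 2, 4, 5 or 6. Bezafibrate, Wy-14643 and rosiglitazone changed 0 members by limma, with 4, 2 and 8 at an unadjusted p under 0.05, against 0.904%, 0.191% and 2.63% of all features. In simulated soleus data for the PPARA agonist mean 65.2% of features changed by 0.25 were called, so differences of that size can be missed. Single compounds have fewer arrays and were not simulated.

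Retinoic acid lowered 4 of 60 members in soleus and raised none, against 2.85% of all features changed and 1.12% lower. Aldh1a2, the retinal dehydrogenase named above, had log2 ratios from -0.41 through -0.23 to 0.12 in retinoic acid soleus and from -0.48 through 0.05 to 0.34 in vehicle soleus. The ranges overlapped, and 19 of 20 retinoic acid rats lay below their day's vehicle mean. It fell by 0.22 ± 0.05 (adjusted p = 0.00048, limma). Akr1c3, known in human as a prostaglandin and steroid reductase, ran from -0.86 through -0.38 to 0.12 in retinoic acid soleus and from -1.46 through 0.01 to 0.85 in vehicle soleus. It fell by 0.41 ± 0.11 (17 of 20 rats below). Aldh3a1 fell by 0.25 ± 0.05 (18 of 20 rats below) and Dhrs7c, found in the muscle sarcoplasmic reticulum, fell by 0.31 ± 0.09 (17 of 20 rats below). All 4 kept their sign on all 5 days, but without day 4 only Aldh3a1 of the 4 passed. Akr1c3 also did not pass without day 2 (-0.36, adjusted p = 0.087, limma), nor Dhrs7c without day 2, 3, 4 or 6 (-0.37 to -0.24, adjusted p = 0.054 to 0.3, limma). Without a vehicle library that stood apart on day 5, Dhrs7c stood at -0.29 and did not pass (adjusted p = 0.081, limma). PPARA agonists and retinoic acid differed for 3 members (2.94% of all features): Aldh1a2 at 0.16 ± 0.04, Akr1c3 at 0.39 ± 0.10 and Hsd11b1 at 0.39 ± 0.11, and none of the 3 passed without day 4. The other 21 enzymes followed by name stood between -0.29 ± 0.13 (Hsd11b1) and 0.15 ± 0.12 (Akr1d1) with retinoic acid. Of 10 hepatocyte markers 0 passed in soleus, and the array means of that list ran from -3.00 through -0.18 to 0.98 in retinoic acid soleus and from -2.75 through -0.12 to 2.12 in vehicle soleus, a spread whose part in these results was not tested.

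In quad the PPARA agonists changed 1 of 60 members (0.841% of all features), Hsd3b7, an enzyme of bile acid synthesis, which fell by 0.19 ± 0.05 and did not pass without day 3 or day 6. Retinoic acid lowered 2 (2.42% of all features changed, 1.7% lower). Hsd11b1, the glucocorticoid-regenerating enzyme, ran from -1.53 through -0.27 to 0.33 in retinoic acid quad and from -0.85 through -0.02 to 1.32 in vehicle quad. The ranges overlapped, and 14 of 18 retinoic acid rats lay below their day's vehicle mean. It fell by 0.36 ± 0.09 (adjusted p = 0.0037, limma), a call lost without day 2 or day 4, and was the only member for which PPARA agonists and retinoic acid differed, by 0.34 ± 0.09 (1.18% of all features). Hsd17b1 fell by 0.22 ± 0.06 (17 of 18 rats below) and stood at -0.21 without a retinoic acid library that stood apart, which did not pass (adjusted p = 0.056, limma). Nor did it pass without day 2, 3, 4 or 5 (-0.25 to -0.19, adjusted p = 0.055 to 0.24, limma). The enzymes followed by name that did not pass in quad stood between -0.21 ± 0.13 (Akr1d1) and 0.05 ± 0.03 (Akr1b10) with PPARA agonists and between -0.09 ± 0.04 (Adh7) and 0.34 ± 0.13 (Akr1b7) with retinoic acid.

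In soleus Hsd11b1 stood at -0.29 ± 0.13 with retinoic acid and did not pass. Its log2 ratios there ran from -1.69 through -0.45 to 0.06 in retinoic acid rats and from -3.36 through -0.08 to 0.58 in vehicle rats, the lowest of which belonged to a library that stood apart. Without that library it stood at -0.35 ± 0.09 and passed (adjusted p = 0.012, limma), and retinoic acid changed 7 members in soleus. The share of all features for that count is not given here. Macrophage and leukocyte markers were also lower with retinoic acid: 3 of 8 passed in quad (median -0.21) and 1 of 8 in soleus (median -0.19). Of 6 fibroblast and matrix markers 1 passed in quad with retinoic acid, Dcn at -0.41 ± 0.11 (list median -0.19), and 0 of 5 in soleus (list median -0.07). The array means of that list ran from -0.95 through -0.05 to 0.57 in retinoic acid quad and from -1.29 through 0.01 to 0.67 in vehicle quad. The part of these markers in the falls of Hsd11b1 was not tested.

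Single compounds in quad changed few members. Fenofibrate changed 2 (5.69% of all features), Dhrs7 at -0.21 ± 0.06 and Akr1c14 at -0.21 ± 0.07, and neither passed without 1 fenofibrate library that stood apart (-0.13, adjusted p = 0.3, limma for Dhrs7) or without day 2 or 6. The fibroblast and matrix markers Dcn, at -0.50 ± 0.11, and Lum, at -0.48 ± 0.14, fell in the same comparison (2 of 6 lower, list median -0.18), and their part was not tested. The array means of that list ran from -1.48 through -0.30 to 0.68 in fenofibrate quad and from -1.29 through 0.01 to 0.67 in vehicle quad. Bezafibrate changed 2 (1.63%), Hsd3b7 at -0.24 ± 0.06 and Aldh18a1 at -0.15 ± 0.04, and Aldh18a1 did not pass without 1 bezafibrate library that stood apart or without day 3, 4, 5 or 6 (-0.17 to -0.09, adjusted p = 0.065 to 0.44, limma). Hsd3b7 did not pass without day 3, 5 or 6 (-0.22 to -0.19, adjusted p = 0.094 to 0.17, limma). Rosiglitazone changed 2 (6.86%), Aldh1l2 at -0.21 ± 0.06 and Aldh2 at 0.20 ± 0.06. Without day 3 Aldh1l2 did not pass (-0.17, adjusted p = 0.18, limma), and Aldh2 did not pass without day 3, 4 or 5 (0.19 each time, adjusted p = 0.13 to 0.19, limma). Wy-14643 changed 0 by limma (6 at an unadjusted p under 0.05), against 0.0163% of all features.

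**Figure D4:**
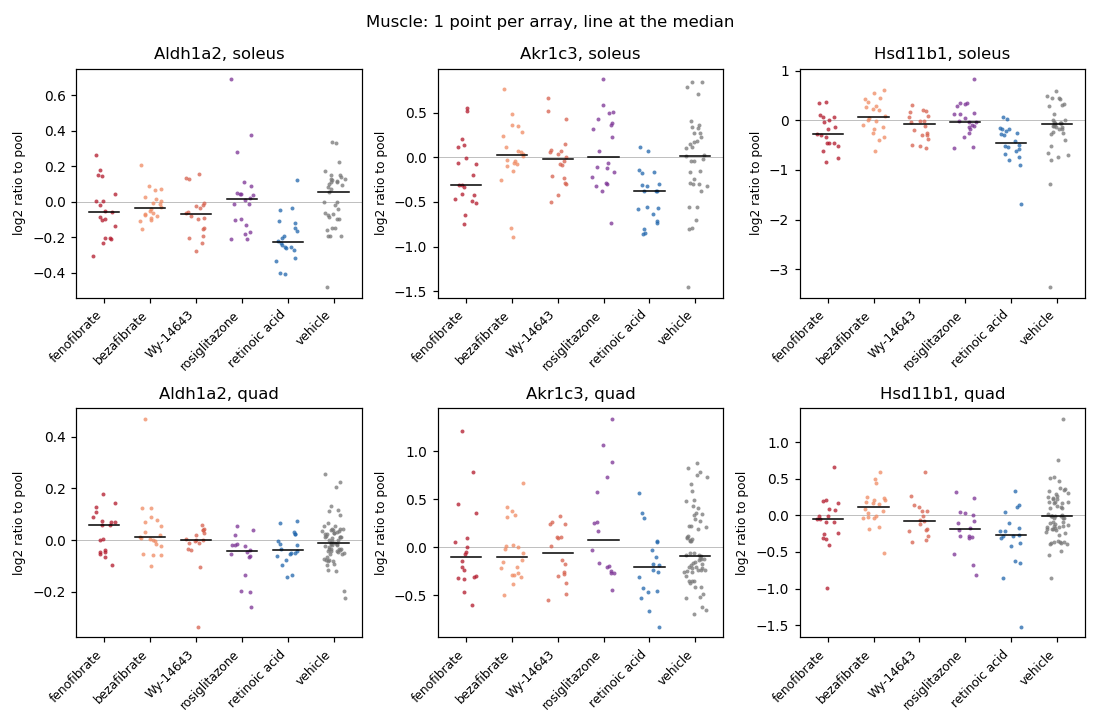
Log2 ratio to the vehicle pool on every soleus and quad array for Aldh1a2, Akr1c3 and Hsd11b1, 1 point per rat, with a line at the group's median and the treated groups left of vehicle. The retinoic acid median of Aldh1a2 in soleus is -0.23, against 0.05 for vehicle, and that of Hsd11b1 in quad is -0.27, against -0.02 for vehicle.

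The liver effects were tested against those in muscle. The PPARA agonist effect differed between liver and soleus for 16 of 58 members (24.3% of all features) and between liver and quad for 20 (28.9%). Between soleus and quad it differed for 0 of 60 by limma (0.267% of all features, 5 members at an unadjusted p under 0.05). Aldh1a1 stood at 0.06 ± 0.09 in soleus and -0.08 ± 0.07 in quad with PPARA agonists, and the liver effect was larger by 1.27 ± 0.12 than in soleus and by 1.40 ± 0.11 than in quad. Dhrs4 stood at 0.15 ± 0.06 in soleus and 0.01 ± 0.04 in quad, with liver larger by 0.47 ± 0.07 and 0.61 ± 0.05. With the probe with the fewest missing values the difference of Dhrs4 from soleus did not pass (0.25, adjusted p = 0.076, limma). Hsd11b1 stood at 0.10 ± 0.10 in soleus and -0.02 ± 0.06 in quad, and the liver effect differed by -1.17 ± 0.18 and -1.05 ± 0.15.

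The retinoic acid effect differed between liver and soleus for 17 members (12.7% of all features) and between liver and quad for 19 (15.9%). With the rat as a block, since the same rats gave several tissues, these counts were 8 and 12. That fit kept only the rats with both tissues (106 for liver and soleus, 121 for liver and quad). Its share of all features is not given here, so the smaller counts cannot be put down to the pairing alone. Between soleus and quad it differed for 0 by limma (0.0708% of all features, 8 members at an unadjusted p under 0.05). Akr1b10 stood at -0.06 ± 0.06 in soleus and 0.05 ± 0.05 in quad with retinoic acid, and its liver rise was larger by 0.51 ± 0.07 and 0.40 ± 0.06. For Aldh1a2 the retinoic acid effect was lower in soleus than in liver, with a difference (liver minus soleus) of 0.18 ± 0.05, which did not pass without day 4 (0.12, adjusted p = 0.19, limma). Aldh1b1 stood at -0.01 ± 0.08 in soleus and 0.02 ± 0.04 in quad, and the liver effect was lower, at -1.27 ± 0.27 and -1.30 ± 0.25.

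**Figure D5:**
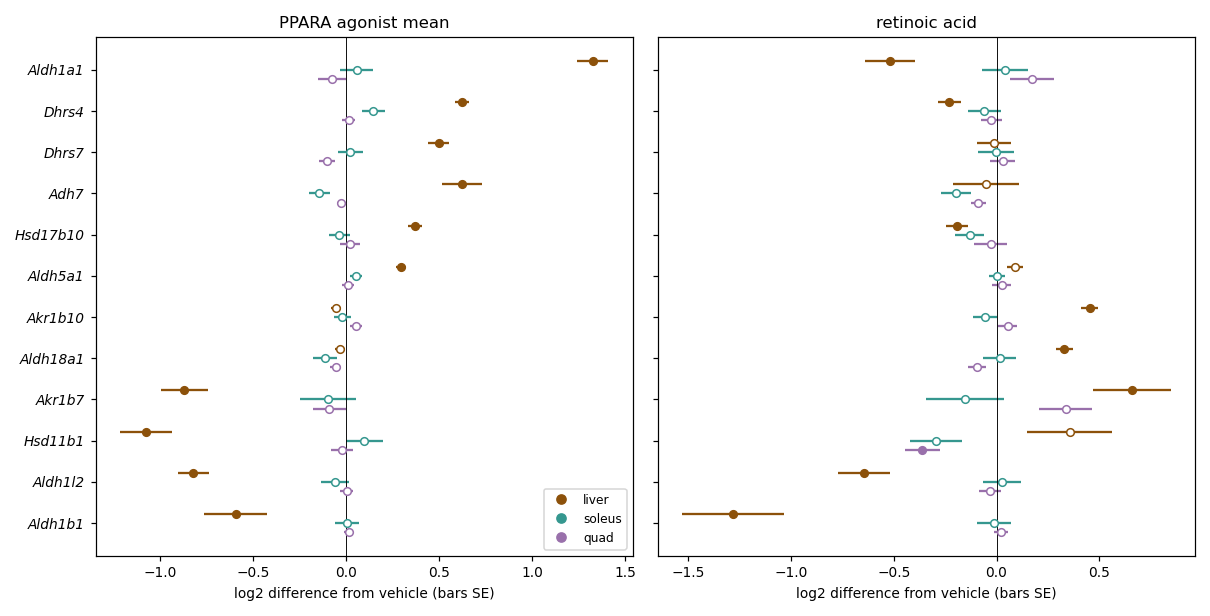
Log2 difference from same-day vehicle rats in liver, soleus and quad for 12 members, for the PPARA agonist mean and for retinoic acid, with bars for the SE. Aldh1a1 lies at 1.33 in liver, 0.06 in soleus and -0.08 in quad with PPARA agonists, and Akr1b10 at 0.45, -0.06 and 0.05 with retinoic acid.

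In EDL the ratio to the pool was tested against 0, so any difference between the pool and single rats enters it. There 29 of 60 members passed with the low-dose PPARA agonists and 24 with low-dose retinoic acid, against 60.3% and 40.4% of all features, so neither count stood above its background. On day 3 the PPARA agonist mean rests on Wy-14643 alone; each compound's days were averaged first. Aldh1a1 stood at -0.21 ± 0.05 with the low-dose PPARA agonists, Aldh1a2 at -0.17 ± 0.03, Dhrs4 at 0.16 ± 0.04 and Hsd11b1 at 0.17 ± 0.05. With low-dose retinoic acid Aldh1a2 stood at -0.24 ± 0.05, Akr7a2 at -0.35 ± 0.04 and Hsd11b1 at -0.02 ± 0.09, which did not pass.

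Of 24 other genes of the retinoid pathway 17 could be tested in liver. With PPARA agonists 4 rose and 9 fell (median -0.07), and 2 hydroxylases that degrade retinoic acid went opposite ways, Cyp26a1 at -0.81 ± 0.11 and Cyp26b1 at 0.61 ± 0.08. Cyp26a1 stood at -1.47 ± 0.17 with fenofibrate, 0.22 ± 0.16 with bezafibrate, which did not pass, and -1.18 ± 0.16 with Wy-14643. Cyp26b1 stood at 0.40 ± 0.12 with fenofibrate, 1.29 ± 0.12 with bezafibrate and 0.14 ± 0.12 with Wy-14643, the last of which did not pass. With retinoic acid 6 rose and 4 fell, among them the receptor gene Rarb at 0.83 ± 0.06 and the retinol-binding protein gene Rbp7 at -0.67 ± 0.13. In soleus 2 of 18 rose with PPARA agonists, and 6 rose and 1 fell with retinoic acid. In quad retinoic acid raised 6 and lowered 1 of 18.

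Outside EDL 10 members passed in no comparison: Akr1c1, Akr1d1, Aldh6a1, Dhrs7l1, Hsd17b6, Hsd17b7, Hsd17b8, Hsd17b11, Hsd3b5 and Rdh7. Their differences from vehicle ran from -0.65 to 0.46 over tissues and compounds. For PPARA agonists in liver 24 members had several probes to compare. In 7 the probes lay on both sides of 0, none of them among the 10 called, and in 1, Adh4, by more than 2 SE on each side.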

How the data were processed

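Each array was a 2-colour hybridisation of the RNA of a single rat and pooled vehicle RNA, per the labels. The authors deposited 1 table of 484 arrays and 23653 probes, read here as log10 ratios whose values stop at -2 and 2, a 100-fold limit reached by 699 values. The log base, the direction, the background correction and the normalization are not given in the sources used here. The deposited log10 ratios were multiplied by 3.3219 to give log2 ratios, and probes of a gene were averaged (15260 probes had 1 gene name, 17 several and 8376 none). Features measured on 80% or more of a fit's arrays were tested with limma 3.58.1 in R 4.3.3 on 1 mean per tissue, compound, dose and day. Differences were taken within days and averaged with equal weight, and p-values were adjusted by Benjamini-Hochberg over all features. The number of arrays limits the precision.

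The members and gene lists were chosen with earlier results of these data known, and a gene that the symbol rule leaves out is not reported here. The rule for named genes took, by smallest adjusted p, up to 15 called members per main comparison, 8 per single compound or in EDL and 10 per slope or tissue difference, plus a fixed set of enzymes in every tissue; in liver the remaining called members are given as well. Rat numbers, per the labels, mark the same animal across tissues. Deviations from group means correlated with a median r of 0.27 between soleus and quad of the same rat (111 rats), 0.14 between liver and quad (121) and 0.14 between liver and soleus (106), and tissue differences were also fitted with the rat as a block. On simulated data for the PPARA agonist comparison with 200 changed features, changes of 0.25 were recovered for 89.3% in liver (18403 features), 65.2% in soleus (18370) and 92.1% in quad (18425). Alternatives were array centring, spread scaling and weights, the missing-value filter, the probe chosen, the prior, leaving out days or the 10 arrays that stood apart, and the ratio to the pool.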

Additional observations from a re-analysis of the deposited data

Results flagged for a closer look

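The PPARA agonist effect differed between liver and soleus for 16 members by a direct test of the difference (liver minus soleus, log2): Aldh1a1 by 1.27, Dhrs4 by 0.47, Hsd17b10 by 0.41, Aldh5a1 by 0.24, Aldh1l2 by -0.76 and Hsd11b1 by -1.17 are the 6 with the smallest adjusted p. Between liver and quad it differed for 20 members, with Aldh1a1 at 1.40, Dhrs4 at 0.61, Dhrs7 at 0.60, Aldh5a1 at 0.29, Aldh1l2 at -0.82 and Hsd11b1 at -1.05. In soleus and quad the effects of these genes against vehicle did not pass, and each of these differences still passed with the rat as a block. With the probe with the fewest missing values Dhrs4 in liver minus soleus stood at 0.25 and did not pass (adjusted p = 0.076, limma). The shares of all features that differed stand beside these counts in the Results above.

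The retinoic acid effect differed between liver and soleus for 17 members, with Akr1b10 at 0.51, Aldh1a2 at 0.18, Akr7a2 at -0.47, Hsd11b2 at -0.65, Aldh1l2 at -0.67 and Aldh1b1 at -1.27. Aldh1a2 did not pass without day 4 (0.12, adjusted p = 0.19, limma), nor Hsd11b2 without day 3 (-0.47, adjusted p = 0.072, limma). Between liver and quad it differed for 19 members, with Aldh18a1 at 0.42, Akr1b10 at 0.40, Akr7a2 at -0.42, Dhrs1 at -0.43, Aldh1l2 at -0.61 and Aldh1b1 at -1.30. For these counts too the shares of all features and the smaller counts with the rat as a block stand in the Results above.

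Effects that differed over days in liver were the slope of 1 member with PPARA agonists, Aldh5a1 at 0.08 per day, and those of 3 members with retinoic acid, Hsd17b1 at 0.11, Rdh14 at 0.13 and Aldh7a1 at -0.14 per day. None of these slopes passed with arrays scaled to equal spread, nor did that of Aldh7a1 with the probe with the fewest missing values. The shares of all features stand beside these counts in the Results above, and for retinoic acid the members' share lay below it.

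In EDL a single array was flagged as apart from the others of its group in 4 of 48 gene and group combinations tested. Chance gives about 1 in 20, so the count is not far from that of chance. The flagged arrays were Adh4 at -0.08 and Hsd17b8 at 0.11 with bezafibrate at 25 mkd, Dhrs7c at -0.70 with rosiglitazone at 10 mkd and Adh4 at -0.12 with rosiglitazone at 100 mkd. All but that of Dhrs7c are small log2 ratios, and the group at 100 mkd had only 4 arrays.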

How the results depend on the processing

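Of 2460 values of the 155 named calls under alternative settings 2361 kept direction and threshold, 99 missed the threshold and 0 reversed. The named calls are those with the smallest adjusted p, up to 8, 10 or 15 per comparison. Weaker calls are not in this tally, so it does not give the stability of all calls. Of 525 values of 31 counts 428 stayed within 1.5 times the reported count and 97 did not. The shares of all features under the alternatives are not given here, so moves of the counts are not read as results about the members. In liver the counts for PPARA agonists (20 to 31), retinoic acid and their difference, fenofibrate and Wy-14643 were among those that stayed. Dhrs4 in liver minus soleus for PPARA agonists stood at 0.25 with the probe with the fewest missing values, which did not pass (adjusted p = 0.076, limma). Array weights downweight divergent arrays, doubted arrays are the 10 that stood apart, equal spread scales all arrays to 1 spread, and the pool ratio replaces the difference from single vehicle rats by the ratio to their pool, leaving out the vehicle rats' own spread; the cause of each move was not tested. Bezafibrate in liver, at 9, gave 27 with array weights, 15 without the doubted arrays, 14 with the pool ratio, and 15 without a single library. Rosiglitazone in liver, at 16, gave 3 with array weights, 10 without the doubted arrays, and 10 without a single library. Slope of PPARA agonists in liver, at 1, gave 0 with equal spread, 3 with array weights. Slope of retinoic acid in liver, at 3, gave 0 with equal spread, 11 with array weights. PPARA agonists in soleus, at 0, gave 1 without the doubted arrays or without day 2, 2 without day 3, 11 with the pool ratio. Retinoic acid in soleus, at 4, gave 7 with equal spread or with array weights, 2 without day 2, 1 without day 4, 9 with the pool ratio, and 3 to 7 without a single library. PPARA agonists minus retinoic acid in soleus, at 3, gave 10 with equal spread or without the doubted arrays, 11 with array weights, 7 without day 3, 0 without day 4, 1 without day 6, and 3 to 8 without a single library. Fenofibrate in soleus, at 1, gave 4 with equal spread or without the doubted arrays, 5 with array weights, 3 without day 3 or with the pool ratio, 0 without day 4 or day 5 or day 6, and 1 to 4 without a single library. Bezafibrate in soleus, at 0, gave 3 with the pool ratio. Wy-14643 in soleus, at 0, gave 1 with the pool ratio. Rosiglitazone in soleus, at 0, gave 1 with equal spread or without the doubted arrays, 3 with array weights, 7 with the pool ratio. PPARA agonists in quad, at 1, gave 2 with equal spread or with array weights, 3 without the doubted arrays, 0 without day 3 or day 6, 12 with the pool ratio, and 1 to 3 without a single library. Retinoic acid in quad, at 2, gave 0 without day 2 or day 4, 1 without day 3 or day 5 or with the pool ratio, and 1 to 2 without a single library. PPARA agonists minus retinoic acid in quad, at 1, gave 0 without day 2 or day 4. Fenofibrate in quad, at 2, gave 0 with equal spread or without day 2 or day 6, 1 with array weights or without the doubted arrays or without day 4, 4 without day 3, 7 without day 5, 15 with the pool ratio, and 0 to 5 without a single library. Bezafibrate in quad, at 2, gave 1 with equal spread or with array weights or without the doubted arrays or without day 4, 0 without day 3 or day 5 or day 6, 5 with the pool ratio, and 1 to 2 without a single library. Rosiglitazone in quad, at 2, gave 9 with array weights, 4 without the doubted arrays or without day 6, 5 without day 2 or with the pool ratio, 0 without day 3, 1 without day 4 or day 5. Retinoic acid in EDL, at 24, gave 15 without day 5. Retinoic acid, liver minus soleus, at 17, gave 26 with array weights, 9 without day 3, 8 with the rat as replicate block. Retinoic acid, liver minus quad, at 19, gave 12 with the rat as replicate block. Retinoic acid, soleus minus quad, at 0, gave 1 with equal spread or with array weights or without the doubted arrays or without day 2, and 0 to 1 without a single library. Liver minus muscle for PPARA agonists kept 12 of 16 calls against soleus and 16 of 20 against quad with the rat as a replicate block. The replicate block uses only rats with both tissues, so fewer arrays enter it. The number of arrays and the spread among vehicle rats (median SD within days over members 0.21 in liver, 0.41 in soleus and 0.18 in quad) limit what can be called.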

Other observations

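Vehicle rats differed among themselves in several members. Within days the SD of the log2 ratio among vehicle livers was 1.60 for Akr1c1, 0.82 for Hsd17b2, 0.81 for Aldh1b1 and 0.73 for Hsd11b1, against a median of 0.21 over the members. In vehicle soleus it was 1.26 for Hsd17b6, 1.17 for Hsd3b5 and 1.15 for Akr1b7 (member median 0.41), and in vehicle quad 0.98 for Hsd17b6 and 0.83 for Akr1d1 (member median 0.18).

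Akr7a3, the aflatoxin aldehyde reductase, rose by 0.34 ± 0.11 with fenofibrate (adjusted p = 0.0083, limma) and fell by 0.32 ± 0.11 with bezafibrate (adjusted p = 0.019, limma) in liver, where the fenofibrate call was lost without day 3 (0.29, adjusted p = 0.052, limma) and the bezafibrate call without day 5 (-0.21, adjusted p = 0.26, limma). Wy-14643 stood at -0.12 ± 0.11 and the mean of the 3 at -0.03 ± 0.07, which did not pass. The doses differ between the compounds, and the difference between them was not tested.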
